A study of Mus musculus with 6 samples.

Results

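MicroRNAs (miRNAs) are RNAs of about 22 bases that guide Argonaute proteins to messenger RNAs, and they are numbered roughly in the order in which they were registered. The mouse miRNAs numbered from 1000 to below 6000 were registered after the classic, widely conserved families, mostly from deep sequencing. They were taken here by name alone: every mature reference whose number lies in that range, with any letter or arm, stem-loop references left out. This gave 167 of the 911 mature miRNA references listed in at least 1 library, against 439 references for let-7 and the numbers below 1000 (the early numbers) and 305 for the numbers from 6000 up (the late numbers). One of the 167 members was a joint entry for miR-1843a-5p and miR-1843b-5p, whose reads could not be assigned to either.

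The libraries were small RNA libraries (NEB kit, column-purified total RNA) from cultured bone-marrow-derived macrophages of mice, 3 from the ApoE-KO genotype (EKO, lacking apolipoprotein E, a lipid carrier that macrophages secrete) and 3 from wild-type mice (WT). The mice were male, matched for age and 6 to 12 weeks old, and the replicates were biological per the series design. The labels name neither the strain nor the knockout allele. All 6 cultures received M-CSF, the macrophage colony-stimulating factor, at 25 ng/mL every 2 days for 6 days, which drives marrow precursors to macrophages. Serum was at 10% in all 6 cultures. The comparison asked how loss of ApoE changes miRNA levels in these cells, and Apoe mRNA was not measured.

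Libraries held 34651516 to 41331600 reads on mature miRNAs, and levels are given as counts per 1000000 of those reads (CPM). Ligation and amplification favour some small RNAs, so levels of different miRNAs in a library share no common scale. All 7 myeloid marker miRNAs were detected in the cultures. Their summed level was 143037 to 171263 CPM in EKO and 215786 to 228611 CPM in WT. Nearly all of this sum was miR-21a-5p, with a mean of 184653 CPM and an edgeR log2 fold change (EKO over WT) of -0.50. Of the other myeloid markers, miR-223-5p (0.46) and miR-146a-5p (0.07) were above 0. The values of miR-223-3p (-0.62), miR-142a-3p (-0.45), miR-142a-5p (-0.64) and miR-155-5p (-0.88) were below 0. Sums of the marker lists for other cells also differed between the genotypes: the 4 stromal markers gave 75.3 to 118 CPM in EKO and 168 to 216 CPM in WT, the 2 lymphoid markers 259 to 321 and 370 to 467 CPM, and liver miR-122-5p 101 to 154 and 47.2 to 58.8 CPM. The stromal sum was mostly miR-143-3p (mean 138 CPM) and the lymphoid sum mostly miR-181b-5p (mean 348 CPM). The rare stromal markers miR-199a-5p (log2 fold change -2.65) and miR-214-3p (3.55) went in opposite directions. The 5 epithelial markers summed to 114 to 174 CPM in EKO and 139.8 to 153 CPM in WT, and the erythroid, muscle and neuronal lists to at most 25.3 CPM in any library. The erythroid marker miR-144-3p, the muscle marker miR-133a-3p and the neuronal marker miR-124-3p were at 0 in every library. Whether these shifts have a part in the differences of the members was not tested, and in bulk cultures fewer cells of a type and less RNA per cell cannot be told apart.

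A miRNA usually comes from a hairpin that is cut by Drosha in the nucleus and by Dicer in the cytoplasm, and either the 5p or the 3p arm can be loaded into Argonaute. Bases 2 to 8 of the mature RNA, the seed, largely decide which messages it pairs with. Some hairpins bypass Drosha, such as mirtrons, short introns that splicing itself releases, and hairpins inside small nucleolar RNAs (snoRNAs) or their Cajal body relatives (scaRNAs). Members of these origins were among the more abundant ones.

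The sequences that carry the results are those of the 6 most abundant members and of the members averaging at least 10 CPM whose genotype groups lay apart, where a sequence was found, given 5′ to 3′ from RefSeq (GRCm38.p6) with the seed in capitals. A sequence was matched by name for 147 of the 167 members.
miR-1198-5p: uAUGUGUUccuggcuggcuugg
miR-3963: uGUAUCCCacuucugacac
miR-1981-5p: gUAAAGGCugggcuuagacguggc
miR-1964-3p: cCGACUUCugggcuccggcuuu
miR-1839-5p: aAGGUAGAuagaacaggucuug
miR-5114: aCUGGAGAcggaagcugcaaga
miR-1843b-3p: cCGAUCGUuccccuccauac
miR-1943-5p: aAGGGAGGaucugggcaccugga
miR-1947-5p: aGGACGAGcuagcugagugcug
miR-1983: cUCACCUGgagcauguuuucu
miR-1934-3p: aGGAUGACgguggggcugguga
No pair of these 11 RNAs shares a seed. Among all 147 members with a sequence, the only shared seed was that of miR-1843a-5p and the joint entry that holds it.

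The most abundant of these RNAs came from varied places in the genome (GRCm38, by name; the build of the deposited counts is mm9). The miR-1198-5p sequence lies at chrX:7807142-7807163 on the plus strand in an intron of Gripap1, and miR-1964-3p at chr7:29773344-29773365 on the plus strand in an intron of Zfp84. The hairpin of miR-1981, at chr1:184822407-184822488 on the minus strand, fills a whole intron of Marc2 of 82 bases, with 0 bases between the hairpin and either exon, which is the layout of a mirtron. The miR-3963 sequence at chr3:151023839-151023857 (minus strand) lies between annotated genes, and miR-5114 at chr19:44303171-44303192 (plus strand) lies in a coding exon of Scd2, which encodes a stearoyl-CoA desaturase. The miR-1839 hairpin is itself annotated as a scaRNA at chr7:81529916-81529988 on the plus strand. Over all members, 110 hairpin loci could be placed, with 44 in introns, 39 overlapping an exon of some transcript, 17 between genes and 10 lying opposite a gene only. Only 3 of the hairpins (those of miR-1306, miR-5132 and miR-5134) had another annotated miRNA hairpin within 10000 bases on the same strand. Hairpins on the opposite strand were not counted.

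Most members were rare, and a few were abundant. The median member averaged 1.12 CPM over the 6 libraries, against 9.13 CPM for the early numbers and 0.501 CPM for the late numbers. A mean of at least 10 CPM was reached by 28 members (16.8%), against 48.1% and 3.93% of those classes, and 77 members (46.1%) averaged under 1 CPM. The 6 members at 100 CPM or more held 92.0% of all member reads. These were miR-1198-5p, miR-3963, miR-1981-5p, miR-1964-3p, miR-1839-5p and miR-5114, which ranked 19, 31, 38, 48, 65 and 116 by mean level among all mature miRNAs.

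**Figure D1:**
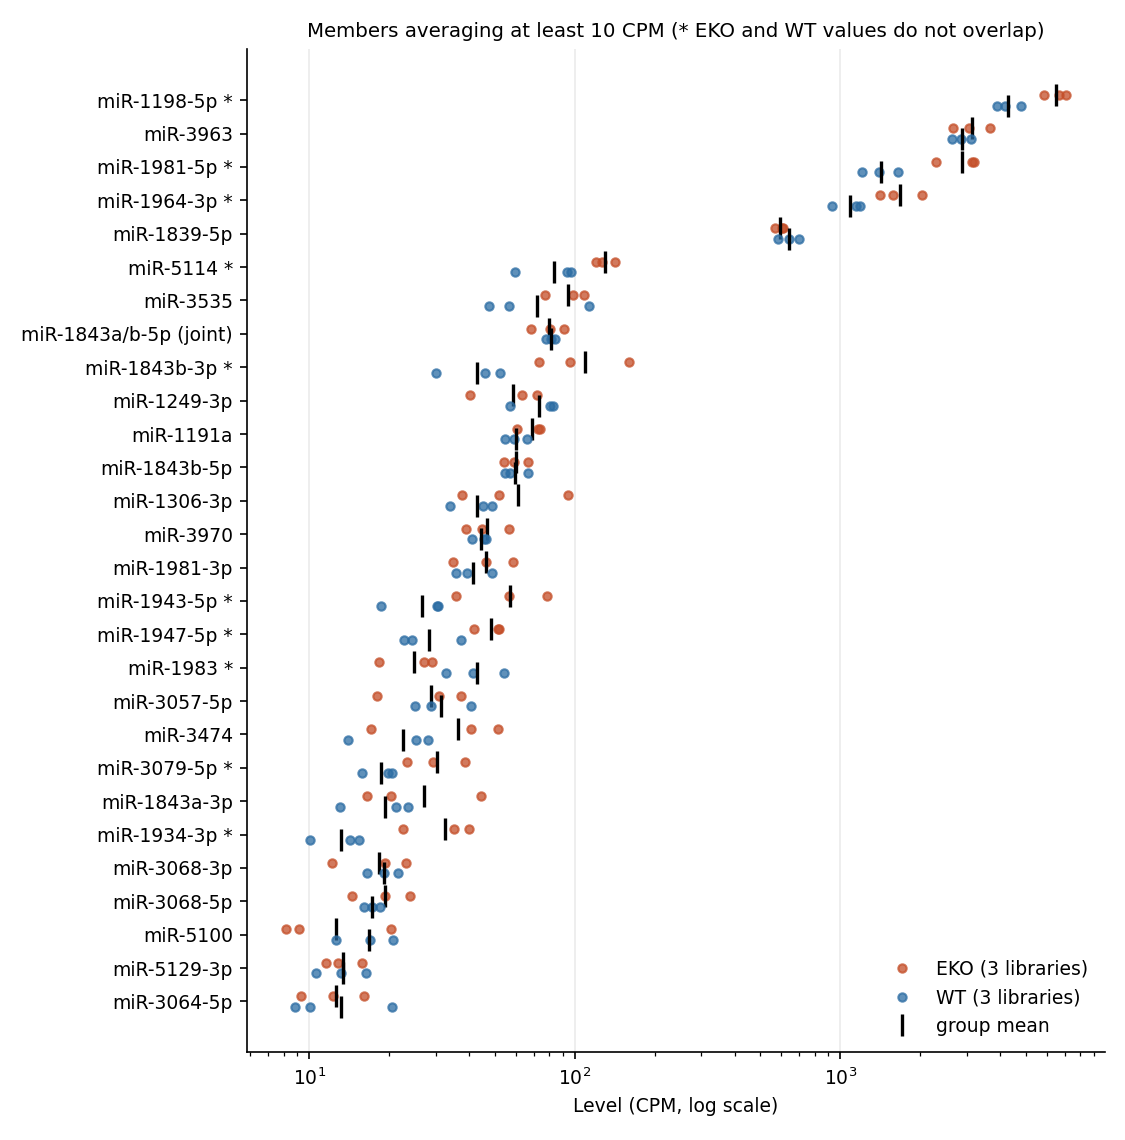
Level of members in each library (CPM, log scale), with EKO and WT libraries as separate points. The most abundant member, miR-1198-5p, lies between 5836 and 7069 CPM in EKO and between 3879 and 4799 CPM in WT, while the miR-3963 points of the genotypes overlap.

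The leading member, miR-1198-5p, stood at 7069, 6639 and 5836 CPM in the EKO libraries and at 4799, 4187 and 3879 CPM in the WT libraries. Every EKO library was above every WT library. The mirtron-like miR-1981-5p stood at 3121, 3189 and 2285 CPM in EKO and at 1652, 1394 and 1206 CPM in WT, again with no overlap. The Zfp84 intronic miR-1964-3p had 2029, 1577 and 1410.1 CPM in EKO and 1150.3, 1188 and 932 CPM in WT, also without overlap. By contrast, miR-3963 had 3660.2, 2656 and 3063 CPM in EKO and 2627, 2856 and 3107 CPM in WT, and its groups overlapped. The scaRNA-embedded miR-1839-5p overlapped as well, at 568, 604 and 609 CPM in EKO and 700.4, 584 and 641 CPM in WT. The Scd2 exonic miR-5114 was at 141, 127 and 120 CPM in EKO and at 93.3, 96.6 and 59.7 CPM in WT, with all EKO libraries on the higher side.

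Spread between replicates depended on level. The 6 members at 100 CPM or more had a median coefficient of variation of 12.9% in EKO and 11.8% in WT. This grew to 26.4% and 21.4% for the 22 members at 10 to 100 CPM, and to 83.8% and 47.8% for the 62 members at 1 to 10 CPM. Differences in the low members therefore had to be much larger to stand out from replicate error.

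Member by member, no miRNA of the series passed an adjusted p of 0.05 in either direction in edgeR's quasi-likelihood test over the 575 miRNAs kept by its count filter (0% called higher and 0% called lower). The filter kept 101 members and left 66 untested. At an unadjusted p under 0.05, 11 of the 101 members were higher in EKO (10.9%, against 8.35% of all tested) and 4 were lower (3.96%, against 13.0% of all tested). With DESeq2 on the same miRNAs, 9 members were called higher and 3 lower (backgrounds 7.48% and 8.52%), and with limma-voom 2 were called higher and 0 lower (1.57% and 4.0%). With no count filter, edgeR called 6 members higher and 0 lower (2.64% and 3.08%). The smallest adjusted p of a member in the edgeR test was 0.0766, held by miR-1198-5p, with a log2 fold change of 0.63 ± 0.14 (SE), and by miR-1981-5p, with 1.05 ± 0.19.

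A second edgeR fit took in the 251 miRNAs with a mean of 10 CPM or more, and it called 10.8% of them higher and 12.7% lower in EKO. Of the 28 members in that fit, 6 rose (21.4%) and 0 fell, and 9 were higher and 1 lower at an unadjusted p under 0.05 (17.1% and 20.3% of all). The 6 were miR-1981-5p (log2 fold change 1.08 ± 0.19 SE, adjusted p = 0.0228), miR-1198-5p (0.67 ± 0.14, 0.0231), miR-1843b-3p (1.42 ± 0.35, 0.0264), miR-1934-3p (1.37 ± 0.34, 0.0264), miR-1964-3p (0.68 ± 0.19, 0.0352) and miR-1943-5p (1.17 ± 0.36, 0.0440), with edgeR p-values adjusted over the 251. These calls depended on which libraries were in the fit. Leaving out EKO replicate 2 or any 1 of the 3 WT libraries left 0 of the members called, leaving out EKO replicate 1 left 1 (miR-1981-5p), and leaving out EKO replicate 3 raised the number to 9. The calls over all 251 moved in the same way. Without any 1 of the WT libraries 0 were higher and 0 lower, and without EKO replicate 2 these were 0 and 1. Without EKO replicate 1 they were 6 and 6, and without EKO replicate 3 they were 38 and 54.

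**Figure D2:**
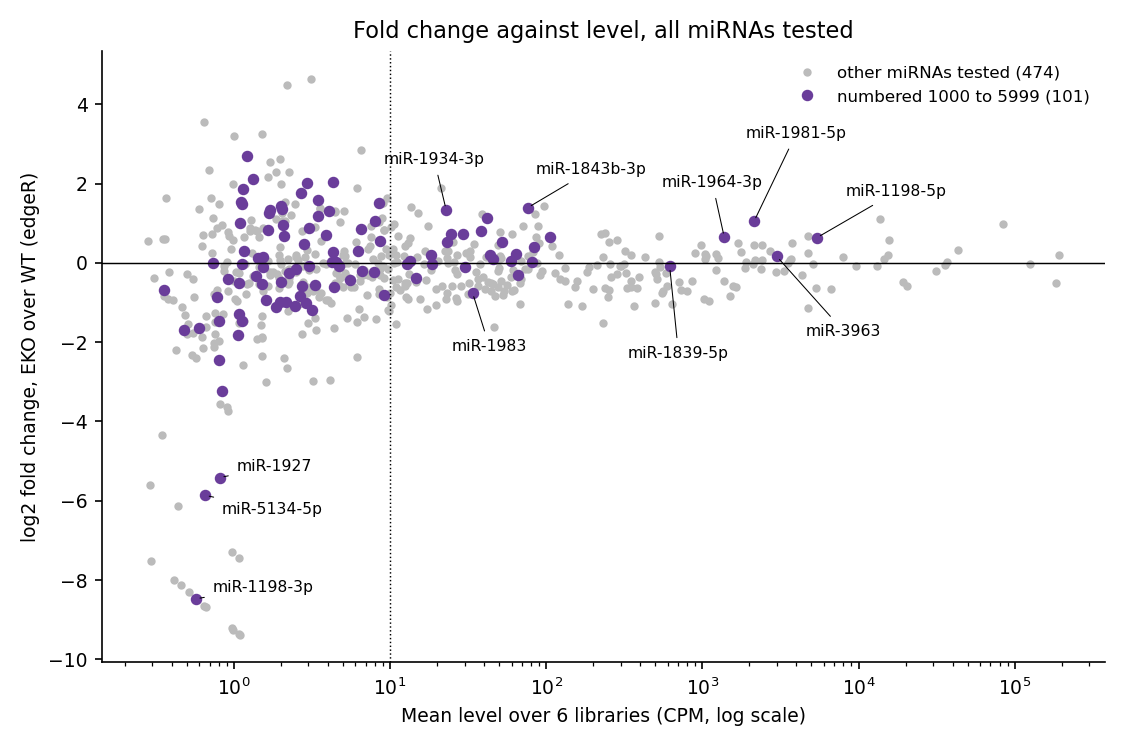
Fold change of EKO over WT (log2, from edgeR) against mean level (CPM, log scale) for all miRNAs tested, with the members in colour and a dotted line at 10 CPM. Right of the line most members lie above 0, with miR-1983 the member furthest below it at -0.75, and the widest scatter is among the rare miRNAs to the left.

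The direction of the abundant members was read from the values themselves. Among the 28 members at 10 CPM or more, 9 had all EKO libraries above all WT libraries (32.1%, against 18.3% of all miRNAs at that level) and 1 had them below (3.57%, against 22.7%). In that second fit 23 of the 28 had a log2 fold change above 0 (82.1%, against 47.8% of all 251), with a median of 0.24 against -0.03 for all 251. The number above 0 in the fits over all miRNAs varied from 16 without EKO replicate 1 to 24 with DESeq2's scaling. The 9 members with higher EKO values were the 6 named above with miR-5114, miR-1947-5p and miR-3079-5p.

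The 3p arm of miR-1843b had 160, 95.6 and 73.0 CPM in EKO and 46.0, 52.4 and 29.9 CPM in WT. The EKO libraries were far apart among themselves, and the lowest of them was above the highest WT library. The miR-1934-3p RNA, from a hairpin between genes, had 39.8, 35.2 and 22.6 CPM in EKO and 10.1, 14.2 and 15.3 CPM in WT. The Tmem184b intronic miR-1943-5p had 78.3, 56.3 and 35.7 CPM in EKO and 30.6, 30.3 and 18.6 CPM in WT, where the lowest EKO and highest WT libraries lay close together. The groups of miR-1934-3p were further apart than those of miR-1943-5p. The Lmln intronic miR-1947-5p had 51.5, 41.7 and 51.8 CPM against 24.4, 37.2 and 22.7 CPM, with a log2 fold change of 0.80 ± 0.28 in the edgeR test (adjusted p = 0.144). For miR-3079-5p the values were 38.6, 29.2 and 23.2 CPM against 19.7, 20.5 and 15.8 CPM, with a log2 fold change of 0.73 ± 0.31 (edgeR adjusted p = 0.213). For miR-5114 the edgeR log2 fold change was 0.66 ± 0.24 (adjusted p = 0.154).

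The member at 10 CPM or more with all EKO values lower was miR-1983, a 21-base RNA known to match part of a transfer RNA. It stood at 18.4, 29.1 and 27.1 CPM in EKO and at 41.5, 32.6 and 54.0 CPM in WT (log2 fold change -0.75 ± 0.27, edgeR adjusted p = 0.154). Its highest EKO library lay close to its lowest WT library.

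The other 18 members at 10 CPM or more overlapped between the genotypes. They included miR-1249-3p, at 63.2, 40.4 and 71.8 CPM in EKO and 82.6, 57.2 and 80.8 CPM in WT. They also included miR-1191a (60.6 to 74.0 CPM in EKO, 54.4 to 66.1 CPM in WT) and miR-1306-3p, whose hairpin lies in a coding exon of Dgcr8, the partner of Drosha (37.6 to 93.9 and 33.8 to 49.0 CPM). The snoRNA-embedded miR-3535 had 77.3, 108 and 98.4 CPM in EKO and 113, 56.6 and 47.4 CPM in WT, so that WT replicate 1 was the highest library of all. Near it in level, miR-3970 had 38.9 to 56.7 CPM in EKO and 40.9 to 46.3 CPM in WT.

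Hairpins inside protein-coding exons gave several of these members with overlapping groups. The Apba3 exonic miR-3057-5p had 30.8, 37.4 and 18.04 CPM in EKO and 40.6, 25.1 and 28.6 CPM in WT. The miR-5129-3p RNA, from a coding exon of Zeb2, a transcription factor gene, had 15.8, 12.8 and 11.5 CPM in EKO and 16.4, 13.2 and 10.6 CPM in WT, a log2 fold change of 0.04 ± 0.36 (edgeR adjusted p = 0.992). The miR-3064 hairpin overlaps a coding exon of Ddx5, a helicase gene whose product takes part in Drosha cleavage, and miR-3064-5p had 9.28 to 16.1 CPM in EKO and 8.81 to 20.5 CPM in WT. In contrast to miR-5114, which also lies in a coding exon, the groups of these RNAs overlapped. Overlap was also seen for miR-3474 (17.1 to 51.3 CPM in EKO, 13.96 to 28.1 CPM in WT) and the Mief2 intronic miR-5100 (8.20 to 20.3 and 12.6 to 20.7 CPM).

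Summed over the 167 members, EKO libraries held 17855, 16031 and 14446 CPM, or 1.786%, 1.603% and 1.445% of all reads. WT libraries held 12091, 11289 and 10777 CPM, or 1.21%, 1.13% and 1.08%. The mean was 16111 ± 1706 CPM in EKO and 11385 ± 662 CPM in WT (SD, n = 3 each), a ratio of 1.42, and every EKO library was above every WT library (two-sided exact permutation p = 0.1, the smallest that 3 against 3 allows). The 4 most abundant members made 86.7% of the member reads and 95.6% of this difference: miR-1198-5p alone gave 47.1% of it, miR-1981-5p 30.6%, miR-1964-3p 12.3% and miR-3963 5.56%. The other 163 members summed to 1975, 1970.4 and 1852 CPM in EKO and 1862, 1664 and 1653 CPM in WT, where the groups overlapped (exact permutation p = 0.2). A higher sum in EKO was not particular to the members. The EKO over WT ratio of the summed level was 1.53 for the late numbers and 0.995 for the early numbers (exact permutation p = 0.1 each).

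Fewer members were seen in EKO than in WT libraries. At least 1 read was found for 93, 99 and 109 members in EKO and for 124, 115 and 130.0 in WT, a mean of 100.3 ± 8.08 against 123 ± 7.55 (SD, n = 3 each, two-sided exact permutation p = 0.1). The mean difference was -22.7 members, or -18.4% of the WT mean, against -9.59% for the early and -28.9% for the late numbers. With every library thinned to the same total of reads, the counts were 93, 99 and 109 in EKO and 123, 115 and 130.0 in WT. The higher summed level and the lower number of members seen thus stood in the same EKO libraries.

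By mean level, the gap in detection lay among the rarest members. That mean is over the same 6 libraries, so members missing from libraries fall into the low classes partly by construction. All 28 members at 10 CPM or more were seen in all 6 libraries. Of the 62 members averaging 1 to 10 CPM, 51, 56 and 56 were seen in EKO and 59, 57 and 58 in WT. Of the 77 members averaging under 1 CPM, 14, 15 and 25 were seen in EKO and 37, 30 and 44 in WT. At a minimum of 1 CPM the groups touched, with 70, 79 and 85 members in EKO and 85, 89 and 90 in WT, and at 10 CPM they overlapped, with 28 to 32 in EKO and 27 to 31 in WT.

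**Figure D3:**
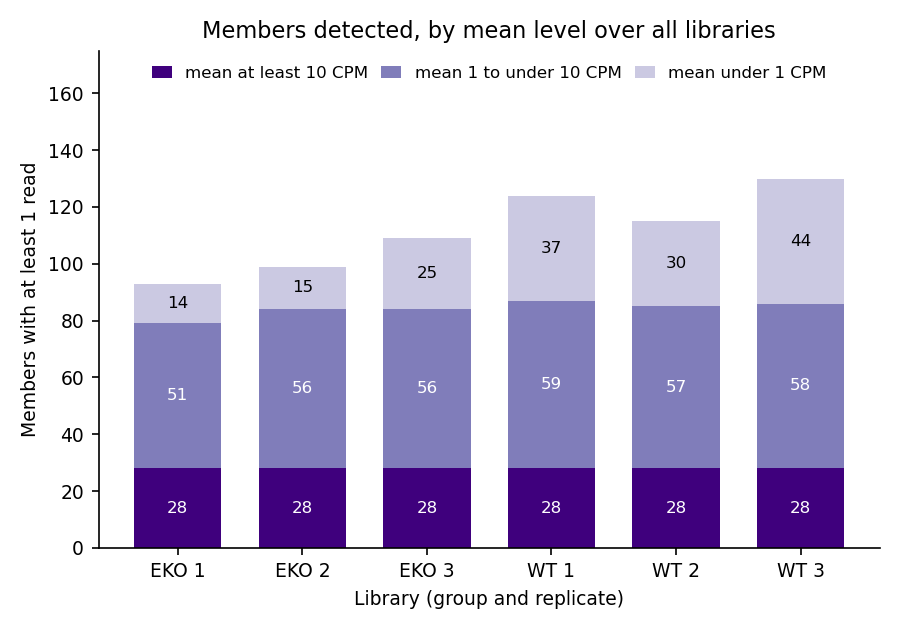
Number of members seen in each library, by genotype and by the mean level of the member. The libraries differ most in members averaging under 1 CPM, with 14 to 25 seen in EKO and 30 to 44 in WT.

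Across libraries, 65 members (38.9%) were seen in all 6 and 35 (20.96%) in 1 library only, against 44.8% and 18.6% of all 911 references. Of those 35, 28 were seen in a WT library and 7 in an EKO library. Where such a member was seen it had a median of 21 reads in a median of 2 different read sequences, against 288 reads in 17 sequences for the members seen in all 6 libraries. No EKO library held a read of 39 members (23.4%) that had reads in WT, and no WT library held a read of 7 members (4.19%) that had reads in EKO. Over all 911 references these shares were 21.2% and 5.49%, near those of the members. Of those 39, miR-1198-3p was the member seen in all 3 WT libraries. The reads were counted after amplification and carry no molecular identifiers, so the number of captured molecules behind them is not known.

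Some low members had nearly all of their reads in WT libraries. The 3p arm of miR-1198, partner of the most abundant member, had 0 reads in all 3 EKO libraries and 75, 48 and 13 reads in WT (1.95, 1.16 and 0.318 CPM). Its WT mean was 13.2-fold above a limit of 3 reads in the smallest EKO library (0.0866 CPM). That limit covers counting error only and not the spread between replicates, so it sets no lower bound on the difference of the genotypes. The edgeR log2 fold change was -8.47 ± 2.34 (SE, adjusted p = 0.105). The 5p arm of miR-5134 had 1, 0 and 1 reads in EKO and 34, 55 and 68 in WT (edgeR adjusted p = 0.105). For miR-1927 the reads were 0, 4 and 0 in EKO and 66, 71 and 55 in WT (edgeR adjusted p = 0.161), and for miR-1231-3p they were 0, 0 and 18 in EKO and 53, 88 and 44 in WT (edgeR adjusted p = 0.497). Of these 4 members, DESeq2 called miR-1198-3p, miR-5134-5p and miR-1927 lower.

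Of the 139 members averaging under 10 CPM, 6 (4.32%) had all EKO values above all WT values and 5 (3.597%) had them below, against 3.79% and 7.58% of all 660 references at that level. Of the higher ones, miR-1966-3p, picked after its values were seen, had 146, 333 and 303 reads in EKO against 87, 48 and 69 reads in WT libraries (log2 fold change 2.04 ± 0.69, edgeR adjusted p = 0.131). The miR-3473f reads numbered 1, 129 and 127 in EKO and 0, 1 and 0 in WT, and edgeR's filter left it untested. As EKO replicate 1 and WT replicate 2 both held 1 read, the miR-3473f groups were apart only through the library totals (0.0289 against 0.0242 CPM). The largest value of miR-3095-5p, 244 reads, was in EKO replicate 1, and it also had 178 reads in WT replicate 2 and 0 in the other WT libraries. Other low members were absent from 2 EKO libraries and high in the remaining one: miR-3109-3p had 0, 192 and 0 reads in EKO against 111, 20 and 41 in WT, while miR-3100-5p had 148, 0 and 0 against 32, 46 and 95. The same held for miR-3101-3p (0, 50 and 0 against 37, 35 and 71 reads), miR-1948-5p (0, 56 and 0 against 23, 146 and 33) and, by CPM, miR-3084-5p (0, 0 and 2.78 against 0.026, 0.532 and 0.171). Their groups overlapped, and single libraries set the means.

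Arms could be compared for part of the hairpins. Of 67 hairpins with an arm in the name of a member, 39 had both arms listed, and 18 of those had at least 50 reads over the 2 arms in every library. Among the 18, the 5p share was over 90% in all libraries for 4 hairpins and under 10% for 2. Choice of arm thus differed widely between hairpins. The 5p shares of EKO and WT did not overlap for 5 of the 18, higher in EKO for miR-1198, miR-1933 and miR-1981 and lower for miR-1843b and miR-5134 (two-sided exact permutation p = 0.1 each, adjusted p = 0.36 over the 18). Shares were not computed for the hairpins of other miRNAs, so whether 5 of 18 is more than among all hairpins is not known. The number of hairpins without overlap was 8 when EKO replicate 2 was left out, 8 when WT replicate 1 was, and 9 when WT replicate 2 was. Leaving out a library cannot make separate groups overlap. The number could therefore only stay or rise, and its rise says nothing on how firm the shifts are.

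The miR-1843b hairpin had at least 3464.5 estimated reads over its arms in every library. Its 5p share was 25.4%, 38.2% and 47.8% in EKO and 59.1%, 52.2% and 64.7% in WT, a mean of 37.1% ± 11.3 against 58.7% ± 6.26 (SD, n = 3 each). The 3p arm carried the difference, since miR-1843b-5p stood at 54.3, 59.0 and 66.9 CPM in EKO and 66.5, 57.2 and 54.8 CPM in WT. A close relative, miR-1843a, blurs the 5p count, because their 5p RNAs share a run of 20 bases (in capitals here), offset by a base, while their 3p RNAs differ more.
miR-1843b-5p: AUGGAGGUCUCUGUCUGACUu
miR-1843a-5p: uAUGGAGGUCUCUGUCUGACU
miR-1843b-3p: ccgaucguuccCCUCCAUAC
miR-1843a-3p: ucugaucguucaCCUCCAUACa
The offset gives the 5p RNAs different seeds, AUGGAGG in miR-1843a-5p and UGGAGGU in miR-1843b-5p, and reads of the shared run were held by the joint entry at 91.3, 80.9 and 68.5 CPM in EKO and 77.6, 84.4 and 81.7 CPM in WT. With all joint reads added to miR-1843b (an alternative chosen after seeing the data), the 5p share was 57.4% ± 8.80 in EKO and 76.9% ± 4.62 in WT. The means differed by 19.6 percentage points, and the highest EKO library (65.0%) stayed below the lowest WT library (73.0%). Over both hairpins the 5p RNAs summed to 146, 143 and 136 CPM in EKO and 147, 144 and 139.5 CPM in WT, while the 3p RNAs summed to 204, 112 and 93.3 CPM in EKO and 67.2, 75.9 and 42.9 CPM in WT (exact permutation p = 0.6 and 0.1).

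The 5p share of miR-1981 was 98.5%, 98.9% and 97.5% in EKO and 97.1%, 97.3% and 97.1% in WT. On the ratio scale, 5p reads outnumbered 3p reads 67.7-, 92.1- and 39.2-fold in EKO and 33.8-, 35.6- and 33.8-fold in WT. The 3p arm of this mirtron-like hairpin did not separate the genotypes, at 46.1, 34.6 and 58.2 CPM in EKO and 48.8, 39.2 and 35.7 CPM in WT (log2 fold change 0.19 ± 0.26, edgeR adjusted p = 0.814). The gap between genotypes seen in miR-1981-5p was thus not seen in its partner arm, though the difference between the arms was tested only through the shares.

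The 3p RNA of miR-1934, a member that rose in the fit at 10 CPM or more, came with a 5p arm of 0.693, 10.2 and 10.7 CPM in EKO and 5.44, 6.22 and 14.01 CPM in WT. The 5p share of this hairpin was 1.71%, 22.6% and 32.1% in EKO and 35.1%, 30.4% and 47.7% in WT, so the groups overlapped (exact permutation p = 0.2, adjusted p = 0.514 over the 18). The Dgcr8 exonic miR-1306 also favoured its 3p arm, with a 5p share of 1.59%, 9.28% and 15.7% in EKO and 13.6%, 16.8% and 34.6% in WT, again with overlap. In both hairpins EKO replicate 1 had the lowest 5p share.

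The remaining shifts rested on few reads or on small shares. The miR-1933 share was 80.7%, 56.5% and 66.7% in EKO and 49.2%, 32.7% and 42.3% in WT, with at least 102 reads in every library. The miR-5134 share was 0.581%, 0% and 0.202% in EKO and 16.7%, 25.7% and 22.3% in WT, with at least 172 reads in every library. For miR-1198 the share was 100% in every EKO library and 99.97% ± 0.0163 in WT (SD, n = 3). The snoRNA-embedded miR-3068 used both arms about equally, with a 5p share of 55.3%, 38.5% and 61.1% in EKO and 51.1%, 45.7% and 46.0% in WT, and its groups overlapped. Its arms stood at 14.5 to 23.8 CPM (5p) and 12.2 to 23.2 CPM (3p) over the 6 libraries.

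**Figure D4:**
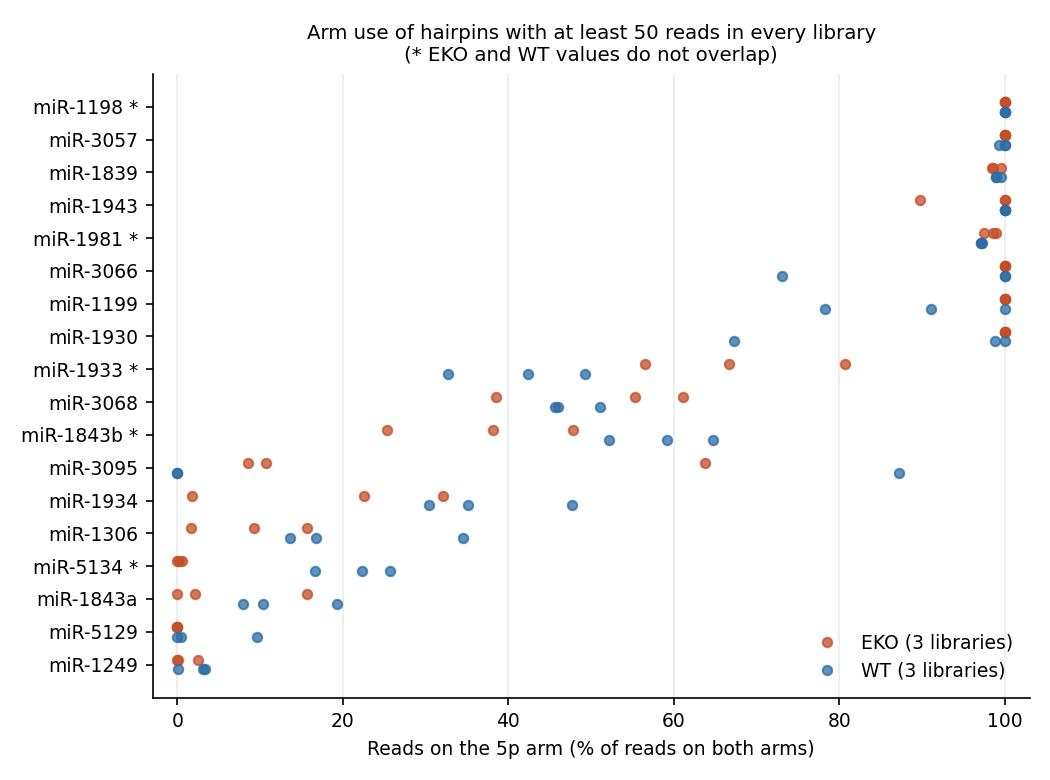
Share of 5p reads (percent of the reads of the 5p and 3p arms) in each library for the 18 hairpins with at least 50 reads in every library. EKO points lie left of all WT points for miR-1843b (25.4% to 47.8% against 52.2% to 64.7%) and right of them for miR-1933.

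Several of the abundant members lie inside other small RNAs. A search of the member sequences against annotated noncoding RNAs of GENCODE M21 other than miRNAs found 14 members with 18 or more bases in a snoRNA or scaRNA, and these held 8 of the 28 members at 10 CPM or more. The 8 were miR-1839-5p, miR-3535, the joint miR-1843a/b-5p entry, miR-1843b-5p, miR-1843b-3p, miR-1843a-3p, miR-3068-5p and miR-3068-3p. Both miR-1843 hairpins lie within annotated scaRNAs, Scarna3a in an intron of Cop1 for miR-1843b and Scarna3b in an intron of Dcaf5 for miR-1843a. The reads of these members could therefore come from a miRNA or from a piece of the larger RNA, which the counts do not tell apart. The search was made after the values were seen, and the annotation searched holds no nuclear transfer RNAs.

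The 14 members together stood at 1038, 1006 and 975 CPM in EKO and 1062, 900.03 and 914 CPM in WT (exact permutation p = 0.4). Of the 8 at 10 CPM or more, only miR-1843b-3p had groups that did not overlap. In the edgeR fit at 10 CPM or more the log2 fold changes of the 8 ran from -0.05 for miR-1839-5p to 1.42 for miR-1843b-3p, with a median of 0.14 beside -0.03 for all 251 miRNAs.

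Other origins known from textbooks were mostly silent. The miRNAs looked up for structured RNAs (miR-1291 in a snoRNA, miR-1839 in a scaRNA and miR-1983 in a transfer RNA) summed to 594, 636 and 650.1 CPM in EKO and 746, 627 and 704 CPM in WT, nearly all of it miR-1839-5p. From the Dgcr8 transcript, miR-1306 summed to 38.2, 104 and 61.3 CPM in EKO and 56.7, 54.3 and 51.7 CPM in WT. The 6 miRNA numbers looked up for the imprinted Dlk1-Dio3 region (miR-1193, miR-1197, miR-1247, miR-3070, miR-3071 and miR-3072) and the 3 of the Htr2c introns (miR-1264, miR-1298 and miR-1912) were in none of the 6 tables and were taken as 0, as were the mirtron miR-1224 and miR-3618 of the Dgcr8 transcript. At this depth a count of 0 allows a level of up to 0.0726 to 0.0866 CPM per library, for counting error only. Of the RNAs on the strand opposite miR-24, miR-3074-5p had 5.86, 0.228 and 7.82 CPM in EKO and 4.40, 6.15 and 8.68 CPM in WT. The value in EKO replicate 2 was far below the other libraries of either genotype.

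The miR-3963 reads differed from those of other miRNAs in how few forms they took. Trimming and added bases usually give an abundant miRNA many different read sequences. The 22 to 34 forms of miR-3963 per library (mean 28) were the fewest among the 42 miRNAs averaging 1000 to 10000 CPM. For the other 41 the lowest mean was 98.7 (let-7j), the next 190.5, the median 447 and the highest 1057. Each form of miR-3963 thus had on average 4116 reads, against a median of 201 and a highest value of 1828 for the other 41. Within the members, miR-1198-5p had 486 to 590.0 forms per library.

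**Figure D5:**
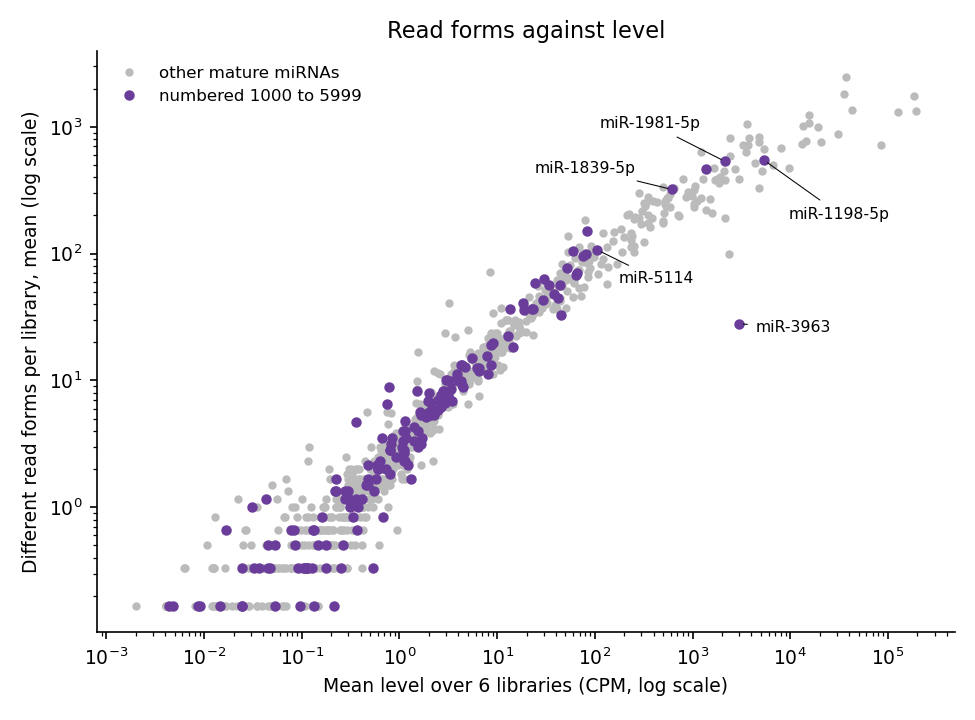
Mean number of different read sequences per library against mean level (CPM), both on log scales, for all mature miRNAs with the members in colour. The miR-3963 point, at 28 forms and 2995 CPM, lies below the band formed by the other miRNAs.

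A pair of low members resembles let-7. The sequence of miR-1961 has the let-7 seed and begins with the same 13 bases as let-7i-5p, and miR-3962 shares a run of 17 bases with let-7g-5p but starts further along, so its seed differs. The shared runs are in capitals.
miR-1961: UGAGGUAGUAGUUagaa
let-7i-5p: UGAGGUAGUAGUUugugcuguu
miR-3962: AGGUAGUAGUUUGUACAuuu
let-7g-5p: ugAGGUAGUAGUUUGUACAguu
Both were rare beside let-7, at 1.21, 0.936 and 1.497 CPM in EKO and 1.69, 1.82 and 1.93 CPM in WT for miR-1961, and 0.476, 0.316 and 0.849 CPM against 0.741, 1.13 and 1.15 CPM for miR-3962. For miR-1961 every WT library was above every EKO library, with an edgeR adjusted p of 0.889. Of the miR-3962 reads, 47.7% also matched another reference, so its level is uncertain. Such shared reads exceeded 10% for 4 other members, the joint miR-1843a/b-5p entry, miR-1843b-5p, miR-3969 and miR-3970.

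In base composition the members stood between the other number classes. Their median GC content was 52.2%, against 47.6% for the early and 56.5% for the late numbers. A length of 21 to 23 bases was held by 74.8% of the members with a sequence, against 90.6% and 82.6% of those classes. A 5′ U, the base that Argonaute proteins favour, opened 39.5% of the members, against 37.2% of the early and 51.9% of the late numbers. Among members at 10 CPM or more it opened 8 of 26 (30.8%), against 44.1% of the early numbers at that level, and 10 of the 26 opened with A.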

How the data were processed

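Per the labels, small RNA libraries were made from 3 EKO and 3 WT macrophage cultures. The authors deposited 1 table per library. Per the file headers it gives distinct read sequences, total read counts and estimated counts adjusted for reads with several matches. Per the submitters' processing notes, mm9 was used; for the aligner and counter, nothing is given in the sources used here. A reference missing from a table was taken as 0. Stem-loop references (73, up to 0.00161% of reads) were left out. Barcode counts were 0 throughout, so counting error in molecules is unknown and limits cover reads only.

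CPM used the estimated counts over all mature references. For tests these were rounded, scaled by TMM, filtered by filterByExpr and fitted with edgeR 4.0.16 (quasi-likelihood, EKO against WT, no covariates), with Benjamini-Hochberg adjustment over all miRNAs tested. SE is the fold change divided by the root of F. Sums, detection and 5p shares were compared by two-sided exact permutation over libraries. The scripts were tested on simulated data. Members were named if among the 10 highest in mean CPM, if at 10 CPM or more with groups that do not overlap, if among the 3 smallest p in each direction, if past an adjusted p of 0.05, if both arms reached 10 CPM, or if averaging 0.5 to 10 CPM and seen in all libraries of 1 genotype and at most 1 of the other (up to 10). The further members described fall outside that rule or were picked after their values were seen. They include miR-1191a, miR-1306-3p, miR-1961, miR-1966-3p, miR-3064-5p, miR-3074-5p, miR-3474, miR-3962, miR-3970, miR-5100 and those of the origin lists and arms. Members and lists were chosen with earlier results of these data known. Sequences and positions come from RefSeq (GRCm38.p6) and GENCODE M21 by name. Alternatives were DESeq2 1.42.0, limma-voom 3.58.1, other scaling, filters, total counts, thinning, leaving out each library and a replicate block.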

Additional observations from a re-analysis of the deposited data

How the results depend on the processing

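Members called higher numbered 0 in edgeR's main test, 9 with DESeq2, 2 with limma-voom, 6 with no low-count filter, 6 with at least 10 reads in every library, 6 with a mean of at least 10 CPM and 6 with the replicate block (26 of all 575 miRNAs); members called lower numbered 0 in all of these but DESeq2 (3). The filter of 10 reads or more in each library tested 57 members. Of all 370 miRNAs it kept, 21 were called higher and 22 lower. The replicate block called 36 of all 575 lower. Leaving out each library gave 0 to 5 members called higher, the 5 without EKO replicate 3 (16 of all 634 tested, beside 29 lower). At a mean of at least 10 CPM, a combination added after seeing the data, leaving out each library gave 0 to 9, beside 0 to 38 of all 251. Other scalings, total read counts and thinning gave 0. Libraries of the same replicate number shared no clear deviation from their group means. These deviations correlated at 0.03, -0.04 and 0.05, and not every library correlated best with its own number. Such values cannot tell whether the libraries were handled in pairs. The summed difference was 4725 CPM, 2498 CPM without miR-1198-5p, and 3853 to 5558 CPM leaving out each library. The difference in members detected ran from -27.0 to -19.0 leaving out each library. Hairpins with 5p shares apart numbered 5, and 5 to 9 leaving out each library, where the number could only stay or rise. Of 457 values of single members under alternatives, 387 kept direction and side of the threshold, 41 passed it and 29 turned sign, none of them called. No value could lose the threshold, since the main test had called 0 members. Leaving out each library moved the log2 fold change of miR-3963 from -0.0057 (without EKO replicate 1) to 0.29, of the joint miR-1843a/b-5p entry from -0.13 to 0.14, of miR-1843b-5p from -0.034 to 0.13, of miR-3068-3p from -0.21 to 0.20, of miR-3068-5p from -0.033 to 0.38, of miR-3095-5p from -1.49 to 9.77, of miR-3109-3p from -8.78 to 1.13 and of miR-3100-5p from -8.80 to 0.71. With limma-voom the joint entry gave -0.0056, miR-3109-3p -3.43 and miR-3100-5p -3.87, with the replicate block those last gave -5.81 and -5.89, and with total counts only the joint entry gave -0.018. For miR-3068-3p the value was 0.0622 with DESeq2, 0.0623 with its size factors, 0.017 with upper-quartile factors, 0.00086 with no low-count filter, 0.028 with at least 10 reads in every library, 0.0098 with a mean of at least 10 CPM and 0.020 with total read counts. The cause was not tested.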
